A study of Mus musculus with 2 samples.

Results

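The genes described here mark embryonic surface ectoderm and other epithelia: Epcam, Krt8, Krt18, Cdh1, Cdh3, Trp63, Esrp1, Grhl2, Grhl3 and Tfap2a. They were chosen by gene name in GENCODE M21, and all 10 were found among the 43346 Ensembl genes of both gene tables. The tables came from total RNA-seq of mouse forebrain (strain B6NCrl) at embryonic day 11.5, with no treatment, genetic change or second tissue named in the labels. The single group held 2 libraries made from pooled healthy embryos, male and female, with 109 embryos behind replicate 1 and 88 behind replicate 2. Input was 10 ng of RNA longer than 200 nucleotides per library. With pooled whole forebrains, fewer cells of a type and less RNA per cell cannot be told apart.

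Epithelial cells adhere through E-cadherin and P-cadherin, carry the cell-surface glycoprotein EpCAM and build a filament network from paired keratins, Krt8 with Krt18 in simple epithelia. In the early embryo the surface ectoderm separates from the neural plate, and the transcription factors of the Grhl, Tfap2 and p63 families are known for building it. As the neural tube forms, neuroepithelial cells exchange E-cadherin for N-cadherin, the product of Cdh2. Esrp1 is an RNA-binding protein that sets epithelial patterns of splicing.

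The libraries held 23165260 and 33597028 expected counts on Ensembl genes in replicates 1 and 2. Levels are given as TPM, reads scaled by transcript length and by depth, of which spike-in RNAs took 13.0% and 12.7%. All 8 genes of a forebrain neuroepithelium list were above 5 TPM in both libraries, led by Lhx2 at 147 ± 10.9, Pax6 at 78.9 ± 3.23, Nes at 73.7 ± 4.42, Emx2 at 61.5 ± 1.53, Emx1 at 51.6 ± 2.12 and Sox2 at 44.3 ± 5.13 TPM (SD, n = 2).

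In this tissue the epithelial genes were present at low to middling levels. At least 1 TPM in each library was found for 9 of the 10 members, against 58.6% of protein-coding genes, and 5 TPM in both by 3 members, against 47.1% of protein-coding genes. The median of log2(TPM + 1) was 2.17 over the members and 2.30 over all 21474 protein-coding genes. Summed over the members, the level was 56.83 TPM in replicate 1 and 56.82 TPM in replicate 2. That sum was nearly the same in both pools although single members were not, as described further on.

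**Figure D1:**
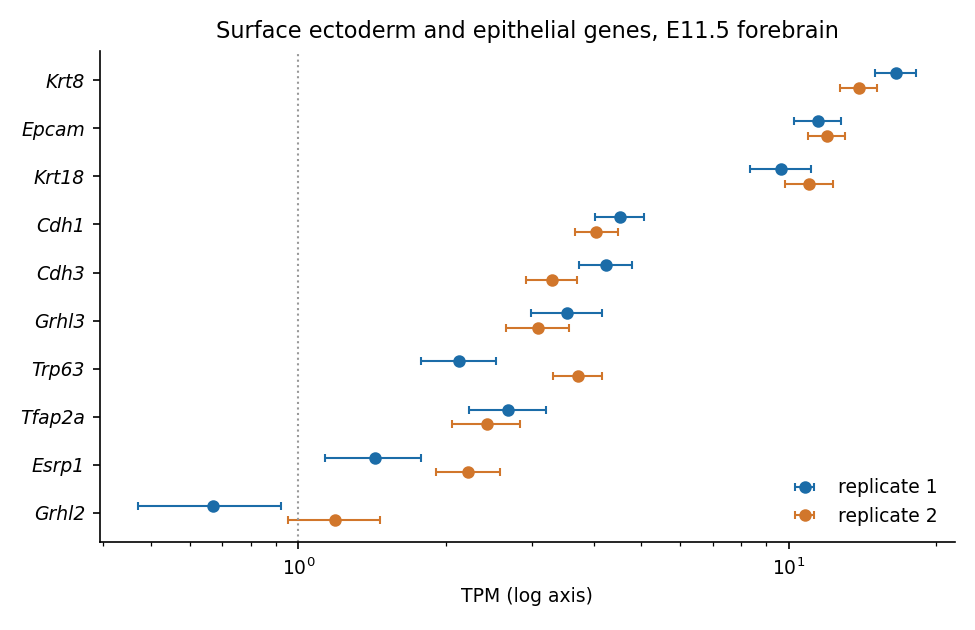
TPM of each member gene (log axis) in replicate 1 and replicate 2, ordered by mean level. Bars are exact 95% Poisson intervals of the counts and cover counting error only, and the dotted line marks 1 TPM. Krt8, Epcam and Krt18 stand above the other genes in both libraries, and Grhl2 is lowest in both.

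The structural genes of simple epithelium came first. Krt8, a type II keratin of simple epithelia, had 16.5 TPM in replicate 1 (95% Poisson interval of the count 15.0 to 18.2 TPM) and 13.9 TPM in replicate 2 (12.7 to 15.1 TPM). Its type I partner Krt18 had 9.65 and 11.0 TPM in replicates 1 and 2. Krt8 was the higher of the pair in both libraries, with a TPM ratio of 1.71 and 1.26 (1.49 ± 0.319, SD, n = 2). Epcam, the homophilic adhesion protein of most embryonic epithelia, lay between them with 11.5 and 11.9 TPM. Krt8, Epcam and Krt18 did not overlap in their library values, but Epcam exceeded Krt18 by a factor of only 1.19 and 1.08.

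The gene of Krt8 lies on chromosome 15 at 101996698 to 102004482 on the minus strand, and that of Krt18 on the same chromosome at 102028180 to 102032027 on the plus strand (GRCm38). Epcam lies on chromosome 17 at 87635979 to 87651129, plus strand. Each of the 3 was quantified as a single transcript with whole expected counts, so its value did not rest on dividing reads among isoforms. Exons of Krt8 overlap those of the long non-coding gene Gm36026 on the opposite strand over 101 bases, and the sources used here do not say whether counting used strand.

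The classical cadherins of epithelia were lower. Cdh1, which encodes E-cadherin, had 4.52 TPM in replicate 1 and 4.05 TPM in replicate 2. Cdh3, which encodes P-cadherin and lies next to Cdh1 on chromosome 8, had 4.24 and 3.29 TPM. Cdh1 was higher than Cdh3 in each library, by a factor of 1.07 and 1.23, but the values of the pair overlapped between libraries. The neural cadherin Cdh2 stood at 219.95 and 216 TPM, so that Cdh1 was at 0.0206 and 0.0188 of the Cdh2 level and Cdh3 at 0.0193 and 0.0152 of it. The mesenchymal cadherin Cdh11 stood at 78.5 and 70.9 TPM.

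Transcription factors of the surface ectoderm followed. Grhl3, a grainyhead-like factor known for epidermal barrier formation and neural tube closure, had 3.53 TPM in replicate 1 and 3.08 TPM in replicate 2. Trp63, the p53 relative that marks stratified epithelium and its precursors, had 2.13 and 3.71 TPM. Tfap2a, an AP-2 factor of surface ectoderm and neural crest, had 2.68 and 2.42 TPM. Grhl2, known for activating epithelial junction genes, was the lowest member with 0.67 and 1.19 TPM, from 37 and 88 counts. The splicing regulator Esrp1 was next above Grhl2 with 1.43 and 2.22 TPM, higher by a factor of 2.13 and 1.87.

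From Cdh1 down to Tfap2a the order of mean levels was not firm. The values of Cdh1 overlapped those of Cdh3, those of Cdh3 overlapped those of Grhl3, and Trp63 overlapped both Grhl3 and Tfap2a. These were 4 of the 9 neighbouring pairs. Tfap2a and Esrp1 did not overlap, but in replicate 2 they were close, at 2.42 and 2.22 TPM. By the deposited posterior mean TPM their order turned in replicate 2, with 2.39 for Tfap2a and 2.47 for Esrp1, but not in replicate 1. The deposited posterior mean TPM placed Grhl2 at 1.28 and 1.49 TPM, above 1 TPM in both libraries, so that its detection depended on which deposited estimate was used.

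Each member was set beside its own family. Among the grainyhead-like genes, Grhl3 exceeded Grhl2 by a factor of 5.27 in replicate 1 and 2.59 in replicate 2, and Grhl1 was lowest with 0.29 and 0.46 TPM. Among the AP-2 genes, Tfap2a was a minor member: Tfap2c stood at 35.6 and 36.7 TPM and Tfap2b at 12.2 and 13.4 TPM, while Tfap2e had 0.16 and 0.25 TPM. Tfap2a was thus at 0.0752 and 0.0659 of the Tfap2c level. Esrp1 and its paralog Esrp2, at 1.91 and 1.83 TPM, changed places between the libraries, with an Esrp1 to Esrp2 ratio of 0.749 and 1.21.

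The keratins fell into a graded order. Below Krt8 and Krt18 stood the simple epithelial keratins Krt7 at 7.25 and 5.15 TPM and Krt19 at 3.18 and 2.39 TPM. The keratins of basal stratified epithelium were lower, with Krt14 at 1.24 and 1.33 TPM, Krt15 at 0.94 and 0.71 TPM and Krt5 at 0.53 and 0.45 TPM. Krt8 and Krt18 together were at 14.4 ± 0.559 times the summed TPM of Krt5 and Krt14 (SD, n = 2). Krt17, a keratin of periderm and appendages, had 1 count in replicate 1 and 0 in replicate 2. Krt6a, Krt13 and Krt4 had 0 counts in both libraries. By counting error alone this allows up to 0.091, 0.284 and 0.0965 TPM in replicate 1. In replicate 2 it allows up to 0.0629, 0.196 and 0.0667 TPM. The deposited posterior mean TPM of Krt13 was above its limits, at 0.78 and 0.54 in replicates 1 and 2.

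**Figure D2:**
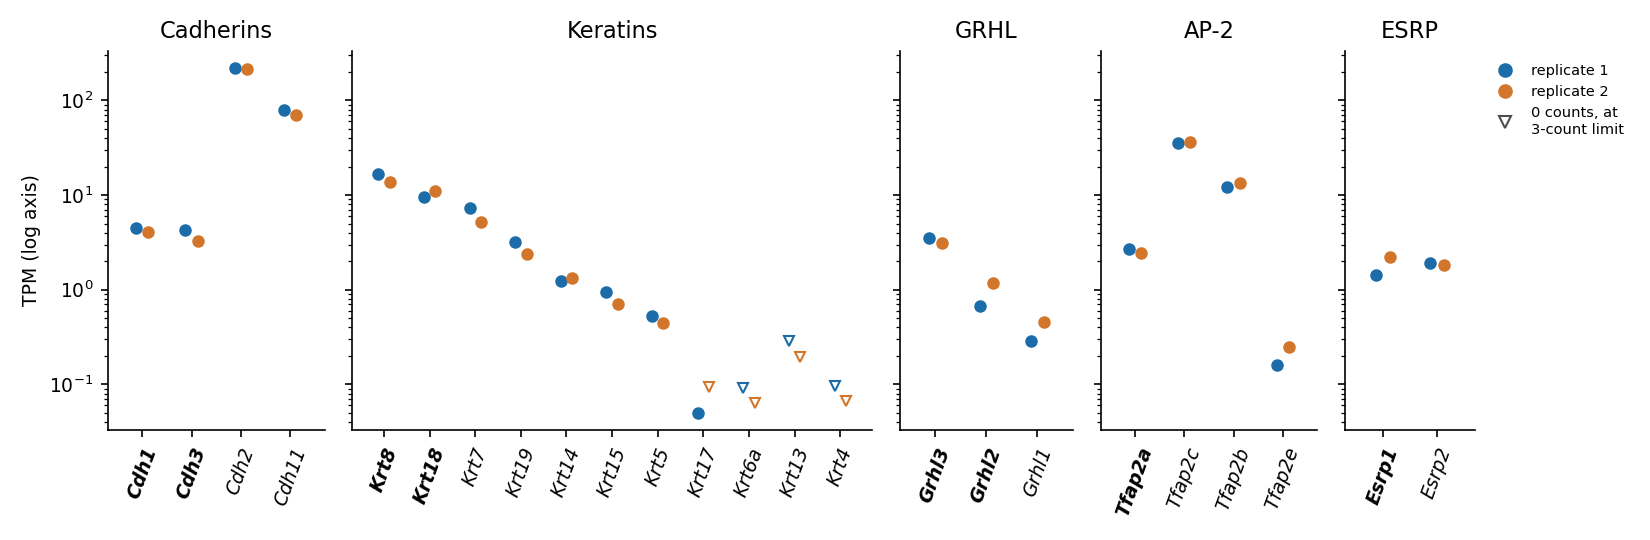
TPM (log axis) of the members, in bold, beside other genes of their families in replicates 1 and 2. Open triangles mark genes with 0 counts, drawn at the TPM of 3 counts. Cdh2 stands far above Cdh1 and Cdh3, keratins descend from Krt8 to the stratified types, and Tfap2c and Tfap2b exceed Tfap2a.

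Other epithelial genes were measured from lists. Of 20 junction, keratin and protease-system genes of simple epithelia, 17 reached 1 TPM in both libraries. They were led by the protease inhibitor Spint2 at 32.4 and 27.3 TPM, plakoglobin (Jup) at 25.4 and 26.7 TPM and the tricellular junction gene Lsr at 24.0 and 25.2 TPM, genes that are not restricted to surface ectoderm. Tight junction genes followed, with Cldn6 at 6.37 and 7.17 TPM and Cldn4 at 5.55 and 4.47 TPM. The median of log2(TPM + 1) was 2.17 over the members and 1.86 over this list.

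Of 15 genes of stratified epidermis and periderm, 4 reached 1 TPM in both libraries. Sfn, the 14-3-3 sigma protein of keratinocytes, had 12.4 and 9.20 TPM, and the desmosome-associated Perp had 9.29 and 9.56 TPM. Krt14, given above, was also among them. The basal desmosomal cadherin Dsg3 had 0 counts in both libraries, and Dsc3 had 20 and 11 counts. The list's median of log2(TPM + 1) was 0.57, against 2.17 for the members.

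Of 12 partner genes in epithelial transcription and splicing, 5 reached 1 TPM in both libraries, namely Tfap2c, Tfap2b, Klf5 at 1.94 and 2.04 TPM, Esrp2, and Klf4 at 1.56 and 1.82 TPM. Ovol1, a zinc finger repressor of mesenchymal genes, had 5 counts in replicate 1 and 19 in replicate 2. Its relative Ovol2 had 0 and 6 counts. The median of log2(TPM + 1) over these 12 genes was 0.82, against 2.17 for the members. Tfap2b is also on the neural crest list used below.

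The neural and mesenchymal counterparts of the epithelial genes were more abundant. All 9 genes of that list were above 5 TPM in both libraries, with a median log2(TPM + 1) of 2.17 over the members and 5.18 over the list. Vim, the intermediate filament of neuroepithelium and mesenchyme, stood at 1011 and 1016 TPM, so that Krt8 was at 0.0163 and 0.0137 of its level. Fibronectin (Fn1) stood at 87.5 and 95.3 TPM. Cdh1, at 4.52 and 4.05 TPM, was below each of its known repressors: Zeb2 at 33.9 and 36.7, Zeb1 at 30.9 and 33.7, Snai1 at 19.9 and 22.0 and Snai2 at 14.9 and 15.6 TPM in replicates 1 and 2. Zeb1, Zeb2, Snai1 and Snai2 are also made by neural, mesenchymal and crest cells, and which cells carried which transcript was not measured.

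Promoter sequences are printed for the members in which a search found the E-box bound by SNAI and ZEB factors. RefSeq promoter windows (GRCm38.p6, from 250 bases before to 50 after each RefSeq start) were matched for 5 members in 6 entries, and not matched for Cdh1, Cdh3, Trp63, Esrp1 and Grhl2. The motif CAGGTG, read on both strands, was in 4 of the 6 entries, against 20.2% of 32817 promoter windows. The 4 are shown on each gene's own strand with the motif in capitals: Epcam at chr17:87635729-87636028 (plus), Krt8 at chr15:102004293-102004592 (minus), Krt18 at chr15:102027966-102028265 (plus) and Grhl3 at chr4:135573583-135573882 (minus).
Epcam: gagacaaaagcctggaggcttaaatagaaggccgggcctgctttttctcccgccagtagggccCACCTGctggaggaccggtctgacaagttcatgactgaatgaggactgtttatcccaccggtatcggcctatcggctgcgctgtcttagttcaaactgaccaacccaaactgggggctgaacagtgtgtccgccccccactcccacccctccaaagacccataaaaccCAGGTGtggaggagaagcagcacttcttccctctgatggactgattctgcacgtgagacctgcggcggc
Krt8: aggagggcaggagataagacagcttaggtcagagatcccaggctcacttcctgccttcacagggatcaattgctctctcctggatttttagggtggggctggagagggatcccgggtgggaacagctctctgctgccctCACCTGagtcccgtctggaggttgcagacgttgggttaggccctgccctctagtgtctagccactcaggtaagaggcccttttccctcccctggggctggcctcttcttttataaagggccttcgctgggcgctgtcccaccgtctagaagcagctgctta
Krt18: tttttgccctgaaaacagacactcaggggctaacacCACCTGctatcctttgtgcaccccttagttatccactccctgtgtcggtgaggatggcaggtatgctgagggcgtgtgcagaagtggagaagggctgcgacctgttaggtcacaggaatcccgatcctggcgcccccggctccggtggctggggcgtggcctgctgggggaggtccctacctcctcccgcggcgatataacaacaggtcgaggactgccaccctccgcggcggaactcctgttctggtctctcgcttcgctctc
Grhl3: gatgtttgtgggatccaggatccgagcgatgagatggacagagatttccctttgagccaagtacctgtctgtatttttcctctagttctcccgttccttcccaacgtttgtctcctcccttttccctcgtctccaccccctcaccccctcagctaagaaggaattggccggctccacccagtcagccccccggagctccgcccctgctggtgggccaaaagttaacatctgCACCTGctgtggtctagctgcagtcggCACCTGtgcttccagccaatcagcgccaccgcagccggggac

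The Epcam and Grhl3 windows each held the motif at 2 places, and 1 in each gene began at position -19 from the RefSeq start. The motif began at position -111 in Krt8 and at -214 in Krt18, counted likewise. Some RefSeq starts differ from the GENCODE gene starts (the higher coordinate on the minus strand): that of Krt8 lies 140 bases inside the GENCODE gene and that of Krt18 36 bases inside. Counted from the GENCODE start, the Krt8 motif begins 29 bases inside the gene and the Krt18 motif at position -178. A grainyhead-like core motif, ACCGGT, was found in 1 member entry, that of Epcam, which held it at 2 places, against 2.33% of all windows. The longer form AACCGGTT, which contains that core, was in none of the member entries and in 0.146% of all windows. An AP-2 motif, GCCNNNGGC, was in 1 entry, that of Krt18, against 16.6% of all windows. A match describes these letters and not binding.

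The libraries were next compared member by member, with an exact two-sided binomial test on rounded expected counts over all 18297 genes with 10 or more counts summed. With 1 library on each side, the test compares these pools and not conditions. Trp63 had 130 counts in replicate 1 and 305 in replicate 2, a log2 ratio of -0.70 at the scaled library sizes (95% exact interval -1.01 to -0.40, counting error only; exact binomial adjusted p = 3.72e-05). Esrp1 had 80 and 178 counts, a log2 ratio of -0.62 (-1.02 to -0.24; exact binomial adjusted p = 0.00809). Grhl2 had 37 and 88 counts, a log2 ratio of -0.71 (-1.32 to -0.15; exact binomial adjusted p = 0.0464). All 3 were lower in replicate 1 than in replicate 2.

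Those 3 of 10 members were past an adjusted p of 0.05 and 1.5-fold, against 4.17% of all genes tested and 6.14% of genes within the members' range of summed counts. By direction, 0 members were called higher in replicate 1, against 1.9% of all genes, and 3 higher in replicate 2, against 2.27% of all genes. None of the 3 passed a 2-fold minimum, and with no filter on low counts Grhl2 lost its call (exact binomial adjusted p = 0.0594). Cdh3 had 251 and 282 counts and a log2 ratio of 0.36 (exact binomial adjusted p = 0.0223), and Krt8 had 431 and 524 counts and 0.25 (exact binomial adjusted p = 0.0416). Both were past the test but under 1.5-fold, and higher in replicate 1. Epcam, Krt18, Cdh1, Grhl3 and Tfap2a did not pass, with log2 ratios between -0.19 and 0.19. By direction 5 members were higher in replicate 1 and 5 in replicate 2, and the median log2 ratio was 0.04 over the members and -0.00434 over all genes tested.

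Differences at least as large were also counted among genes of like depth. Of 1655 genes with summed counts within 1.5-fold of those of Trp63, 1.87% differed as much between the libraries, and for Esrp1 and Grhl2 the same share was 6.38% and 12.3%. These shares are descriptions of the libraries. The summed TPM was 136 and 123 over simple epithelial genes and 28.1 and 25.3 over stratified genes in replicates 1 and 2.

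Other lists were read by the same exact binomial test, adjusted over all genes, of which 4.17% were called, 1.9% higher in replicate 1 and 2.27% higher in replicate 2. Of 20 simple epithelial genes tested, 3 were called higher in replicate 1, namely Cldn3 (102 and 89 counts), Cldn7 (70 and 63 counts) and Prss8 (57 and 50 counts), and 1 was called lower, the epithelial sorting adaptor Ap1m2 (28 and 74 counts). Of 9 stratified genes tested, 1 was called, Dsc3, with 20 and 11 counts, higher in replicate 1. Of the 10 partner genes tested 0 were called. In the pigment epithelium list 2 of 5 genes tested were called, both lower in replicate 1: Pmel, a melanosome protein, with 40 and 159 counts (log2 ratio -1.45; exact binomial adjusted p = 2.13e-08) and Mitf, the pigment cell factor, with 30 and 77 counts (-0.82; exact binomial adjusted p = 0.0358). The direction of Mitf turned with the deposited estimate, since its posterior mean TPM was 32.4 in replicate 1 and 23.5 in replicate 2, against TPM of 0.62 and 1.23. Summed over its 8 genes the pigment epithelium list had 9.31 and 10.6 TPM. Its other genes had 186 and 214 counts for Dct, 16 and 32 for Best1, 4 and 15 for Tyr, 2 and 5 for Tyrp1, 2 and 3 for Mlana and 3 and 1 for Rpe65. No gene of this list had 0 counts in either library. The part of pigment epithelium in the members' difference was not tested. In the crest, placode, oral ectoderm, endoderm, choroid plexus, mesenchyme, forebrain and cadherin lists 0 genes were called.

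**Figure D3:**
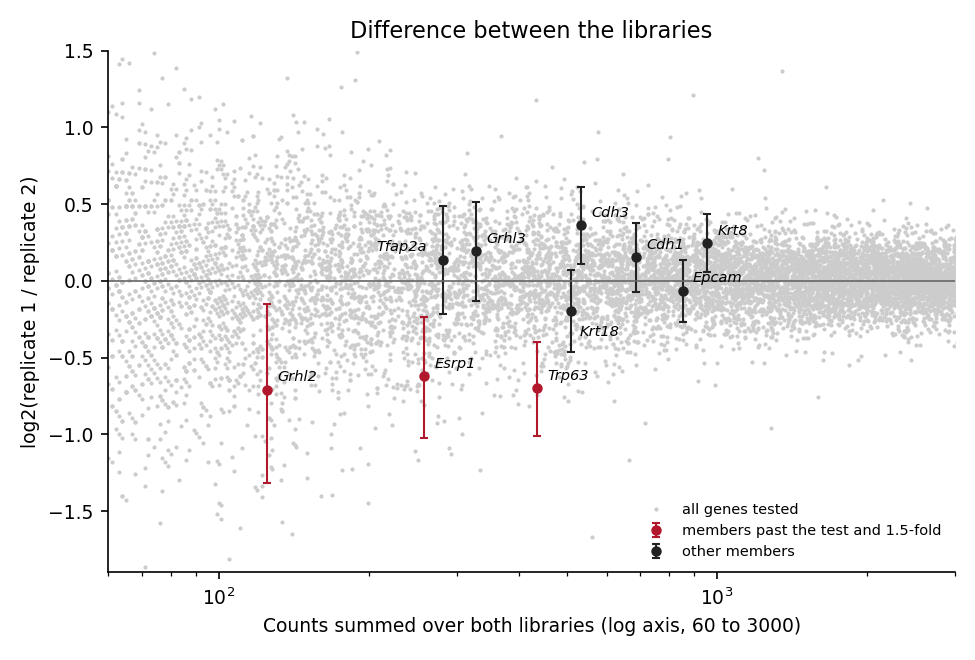
Log2 ratio of replicate 1 over replicate 2 against counts summed over both libraries (log axis), with members labelled and all other tested genes within the plotted window in grey. Bars are exact 95% intervals for counting error. Grhl2, Esrp1 and Trp63 lie below 0 with their whole intervals, Krt8 and Cdh3 lie above 0 with theirs, and the other members span 0.

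Transcript tables showed which forms of the members were present. Trp63 has an upstream promoter, which gives TA forms with the transactivation domain, and an internal promoter, which gives the ΔN forms that predominate in embryonic epidermis. The 4 annotated transcripts that start at the internal promoter (chromosome 16, 25801916, plus strand) held 1.92 of the gene's TPM in replicate 1 and 3.38 in replicate 2, and the 4 TA transcripts held 0.22 and 0.32. The ΔN share was 89.7% and 91.4% (90.5% ± 1.15, SD, n = 2). TA forms rested on 5.64 and 11.9 expected counts, all on Trp63-206, which ends early, at position 25821318, and has 693 coding bases, against 2040 in the longest TA form, Trp63-208.

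Within the ΔN class the division was not stable. Trp63-201 held 76.6% of the gene's TPM in replicate 1 and 30.0% in replicate 2, whereas Trp63-205, whose coding sequence is 12 bases shorter, held 0% and 39.5%. The deposited credibility intervals of Trp63-205 were wide, up to 1.04 TPM in replicate 1 and from 0.239 to 2.30 TPM in replicate 2, and that of Trp63-201 reached from 0.372 to 1.68 TPM in replicate 1 and up to 2.06 TPM in replicate 2. Trp63-204, a form with an earlier end, held 5.61% and 19.2%.

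The other members had simpler or less certain makeup. Epcam, Krt8, Krt18, Cdh3 and Grhl3 were listed with a single transcript each, and Cdh1 held all of its TPM in Cdh1-201 in both libraries. Tfap2a held 97.4% and 100% in Tfap2a-201. Esrp1 was divided between Esrp1-204, with 58.7% and 73.0%, and Esrp1-203, with 37.8% and 23.4%. The mean Esrp1-204 share was 65.9% by TPM and 44.2% by posterior mean TPM. Deposited credibility intervals of Esrp1-204 and Esrp1-203 overlapped in both libraries. The longest form of Grhl2, Grhl2-201, held 63.6% and 52.9% of its TPM, from 30.8 and 67.7 expected counts. Its shorter forms changed between libraries: Grhl2-203 held 28.8% and 0%, Grhl2-204 held 0% and 29.4%, and Grhl2-205 held 0% and 17.6%, from at most 16.2 expected counts each. The mean Grhl2-201 share was 58.3% by TPM, 80.2% by expected counts and 27.7% by posterior mean TPM. By posterior mean in replicate 1, Grhl2-201, at 0.25 TPM, was below Grhl2-203 at 0.31 and Grhl2-202 and Grhl2-204 at 0.29 TPM each, so its lead depended on the estimate. Exons of Grhl2 overlap the antisense gene Gm16136 over 169 bases, and Grhl2, at 0.67 and 1.19 TPM, was below Gm16136, at 2.04 and 1.46 TPM. Exons of Tfap2a overlap the antisense gene Gm26688 (0.66 and 0.80 TPM) over 380 bases, besides those of Gm47061 and Gm47067, not analysed here, and those of Esrp1 overlap the opposite-strand gene Gm26663 (0.15 and 0.03 TPM) over 127 bases.

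Fgfr2 was examined as a known target of Esrp1 and Esrp2, which favour its exon IIIb in epithelia, while mesenchyme and neural tissue use exon IIIc. Exon IIIb lies at 130199758 to 130199905 and exon IIIc at 130198419 to 130198563 on chromosome 7, minus strand. Transcripts with exon IIIb held 9.00 TPM in replicate 1 and 7.02 TPM in replicate 2, and those with exon IIIc held 31.5 and 30.6 TPM. The IIIb share of both classes together was 22.2% and 18.7% (20.5% ± 2.52, SD, n = 2). By expected counts the share was 14.9%, and 50.1% and 50.2% of the gene's TPM lay in transcripts with neither exon. Whether IIIb transcripts came from the cells that carried Esrp1 was not measured.

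**Figure D4:**
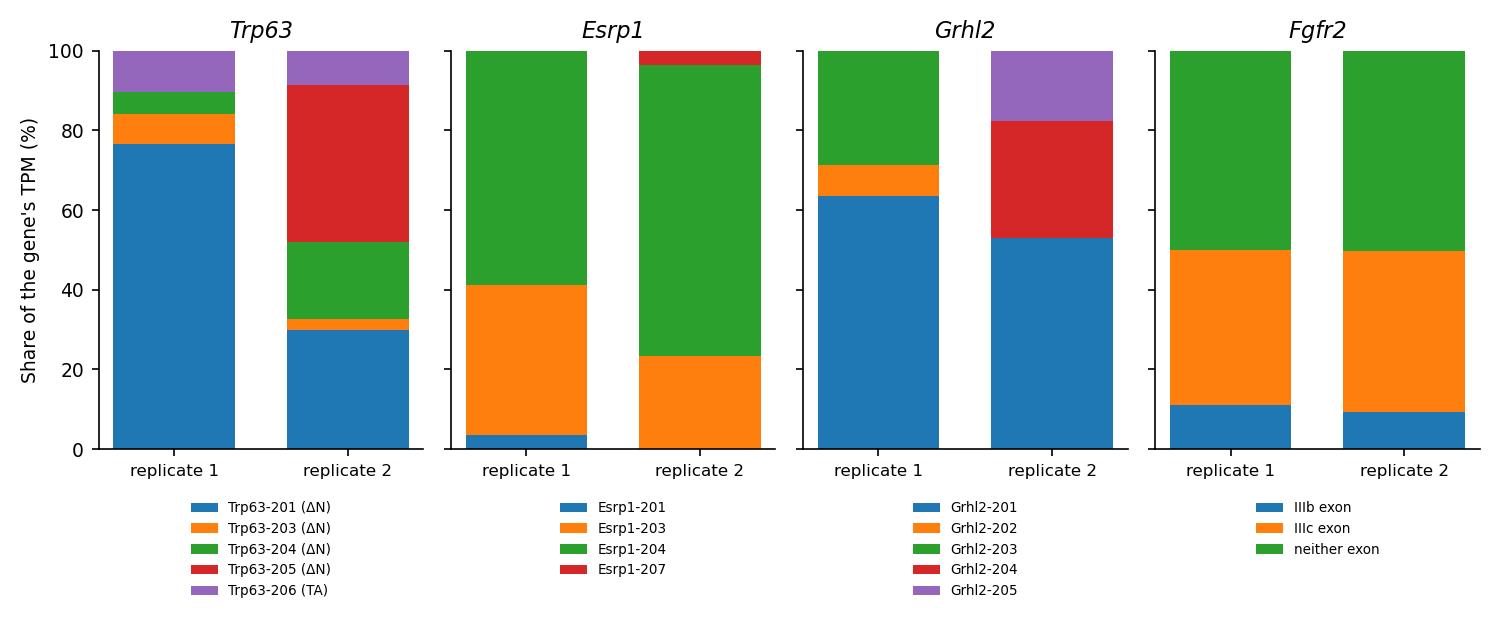
Share of each gene's TPM (%) by transcript for Trp63, Esrp1 and Grhl2, and by exon class for Fgfr2, in replicates 1 and 2. ΔN forms make up 89.7% and 91.4% of Trp63 while the division among them differs between libraries, and the Fgfr2 classes are alike.

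Markers of tissues that could carry these genes were measured beside them. Of 8 neural crest genes 6 reached 1 TPM in both libraries: Sox9 at 131 and 142 TPM, Ednrb at 41.2 and 43.0, Ets1 at 14.5 and 17.8, Snai2 at 14.9 and 15.6, Tfap2b at 12.2 and 13.4 and Pax3 at 3.47 and 3.73 TPM. Sox10 had 1.05 and 0.97 TPM, and Foxd3 had 2 and 3 counts. Several of these genes, Sox9 among them, are also made by cells outside the crest. In the placode, lens and olfactory list 6 of 11 were detected, among them Eya1 at 14.4 and 12.6 TPM and Eya2 at 8.18 and 8.38 TPM, besides Dlx5 at 35.6 and 37.2 TPM and Sp8 at 15.8 and 18.5 TPM, which the forebrain itself makes. The lens genes Cryaa, Foxe3 and Pitx3 had between 0 and 4 counts.

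Oral ectoderm, endoderm and pigment epithelium genes were mostly below 1 TPM. In the oral ectoderm and pituitary list Pitx1 had 0.78 and 0.59 TPM, Hesx1 0.06 and 0.35 TPM and Lhx3 0.13 and 0.02 TPM. Pou1f1 had 0 counts in both libraries. By counting error alone this allows up to 0.14 TPM in replicate 1 and 0.0966 TPM in replicate 2. Of 8 endoderm genes 3 were detected, Ttr at 8.18 and 6.78 TPM, which choroid plexus also makes, Sox17 at 6.79 and 6.90 TPM, which endothelium also makes, and Foxa1 at 1.52 and 1.33 TPM. Foxa2, a definitive endoderm and floor plate factor, had 0.53 and 0.12 TPM. Hnf4a had 0 counts in both libraries. By counting error alone this allows up to 0.0981 TPM in replicate 1 and 0.0678 TPM in replicate 2. The deposited posterior mean TPM lay above these limits, at 0.44 and 0.31 for Hnf4a and 0.25 and 0.17 for Pou1f1 in replicates 1 and 2.

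Of the pigment epithelium genes 2 of 8 reached 1 TPM in both libraries, Dct at 5.63 and 4.48 TPM and Pmel at 1.29 and 3.54 TPM, while Best1 had 1.16 and 0.73 TPM. By the deposited posterior mean TPM 3 of the 8 did so, with Mitf added at 32.4 and 23.5 TPM. For choroid plexus 3 of 6 reached that level, Folr1 at 8.30 and 9.01 TPM, Ttr, and Clic6 at 3.24 and 2.44 TPM, while Aqp1 had 0.72 and 0.48 TPM. The mesenchyme list was detected in full, 10 of 10, with Col3a1 at 300.01 and 319.7, Col1a1 at 129 and 129, Col1a2 at 120.3 and 112, Lum at 91.8 and 89.4, Alx1 at 27.2 and 30.7 and Prrx1 at 22.4 and 22.8 TPM. It had a summed level of 725 and 736 TPM, beside which the members' sum was 56.83 and 56.82 TPM. The part of any of these tissues in the members' levels was not tested.

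**Figure D5:**
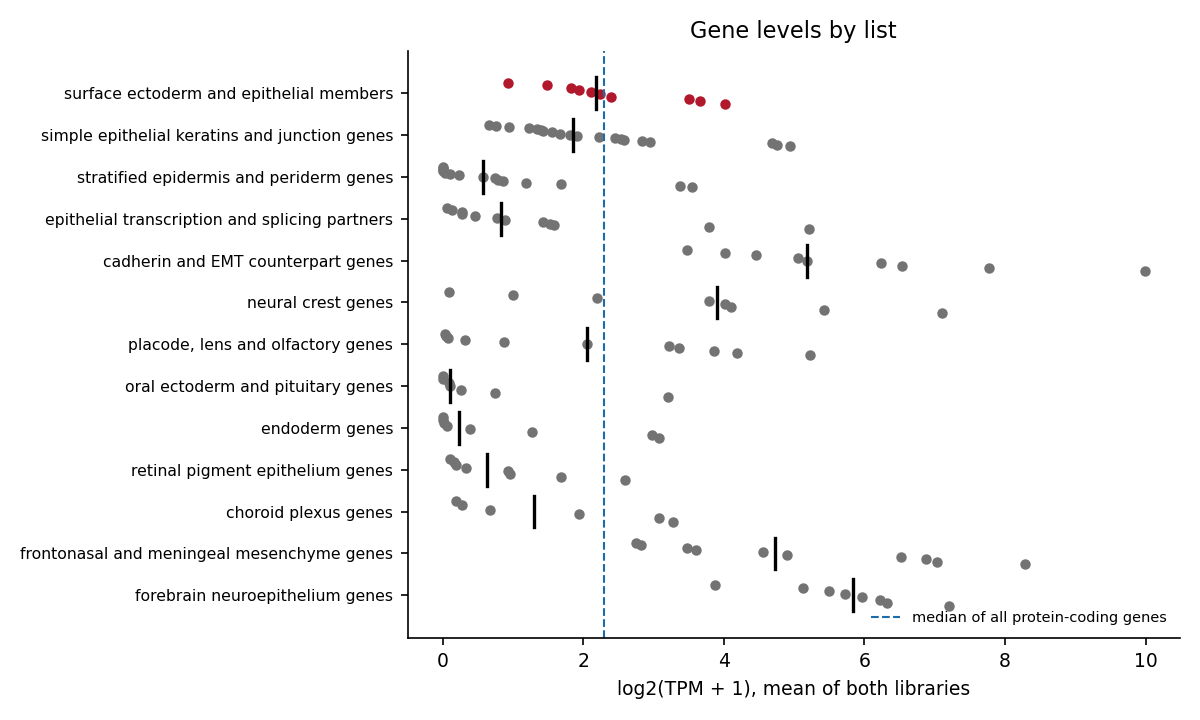
Level of each gene, as log2(TPM + 1) averaged over both libraries, by list. Black bars are list medians and the dashed line is the median of all protein-coding genes, 2.30. The epithelial members, in red, centre on 2.17, above the stratified epidermis, oral ectoderm and endoderm lists and below the mesenchyme and forebrain lists.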

How the data were processed

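Total RNA-seq of 2 forebrain libraries was used, each deposited as 1 gene and 1 transcript table. The deposited text notes name mm10 and GENCODE M4 for the alignment. For the aligner, the quantifier, their versions and strand handling: not given in the sources used here. Expected counts, as deposited, are estimated reads per feature, whole or not. TPM as deposited cover all entries, spike-ins included, and a deposited posterior mean TPM served as alternative. Deposited counts were 23165260 and 33597028 on Ensembl genes in replicates 1 and 2. The 97 spike-in entries and 26248 entries with numeric identifiers stayed out of library sizes and tests.

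Names and positions were joined from GENCODE M21 (GRCm38, the build of the tables) by stable identifier, which matched 98.0% of Ensembl identifiers. Transcript lengths differed between the tables and M21 in 5 of 56 transcripts examined. Exon classes of Fgfr2, start classes of Trp63, exon overlaps and GENCODE gene starts follow M21. Members and gene lists were chosen with earlier results of these data known. Named by rule are all members, the 4 genes of highest mean TPM in each list (up to 6 where more stood at 5 TPM or above), family partners, overlapping genes and transcripts with 10% of a member's TPM. List genes called between libraries, genes at few or 0 counts and further family members were named after their values were seen. Some genes of these lists are not reported here.

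Counts were rounded, library sizes were scaled by TMM in edgeR 4.0.16 (R 4.3.3), and an exact two-sided binomial test in scipy 1.17.1 compared the libraries over genes with 10 or more counts summed, with Benjamini-Hochberg adjustment, with 0.5 counts added for log2 ratios. DESeq2 1.42.0 size factors, spike-in sizes and other minimums were alternatives. The script was tested on simulated data. Limits for genes with 0 counts are 3 counts per library. Intervals cover counting error only, since reads without molecular identifiers are not independent molecules. The p-values measure the difference between 2 pools and no population of animals.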

Additional observations from a re-analysis of the deposited data

How the results depend on the processing

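The number of members at 1 TPM or more ranged from 8 (minimum of 2 TPM) to 10 (minimum of 0.5 TPM, posterior mean TPM, or replicate 2 alone), and Grhl2 was the gene that crossed 1 TPM. The summed member level was 56.4 TPM by posterior mean and 65.2 TPM when rescaled over Ensembl genes without spike-ins, and 56.82 to 56.83 TPM in single libraries. The Cdh1 to Cdh2 ratio was 0.0188 to 0.0206 and the Krt8 to Krt18 ratio 1.26 to 1.71 in single libraries. The ΔN share of Trp63 was 95.9% by expected counts, 84.3% by posterior mean and 89.7% to 91.4% in single libraries. The IIIb share of Fgfr2 was 14.9% by expected counts and 18.7% to 22.2% in single libraries. With no fold minimum, 4289 genes and 5 members (Krt8, Cdh3, Trp63, Esrp1 and Grhl2) differed between the libraries, and with a 2-fold minimum 483 genes and 0 members, by the exact binomial test with Benjamini-Hochberg adjustment. TMM sizes, DESeq2 size factors and spike-in sizes called the same 3 members, and 748 genes with 2 members were called with no filter on low counts. Without the filter more genes entered the adjustment, and Grhl2 was the member lost. Of 263 alternatives for single genes, lists and isoforms, 207 were counted as unchanged. The rule was the same call, a value within 1 SD of the replicates or, for list detection counts, within 1.5-fold. Where the 2 libraries differ, leaving 1 out keeps a mean within 1 SD, so this could not move a member level or isoform share. Trp63-205, at 0% and 39.5% in single libraries, was thus counted as unchanged. For the 3 called members no direction was reversed, but filters and fold minimums leave the log2 ratio as it is. Posterior mean TPM was not tried there. Grhl2 had the fewest counts of the members, 37 and 88, which limits its values. The library comparison needs both libraries and could not leave one out. No paired analysis was possible because there was a single group.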
